A study of Mus musculus with 21 samples.

Results

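Matrix metalloproteinases (MMPs) and their tissue inhibitors (TIMPs) were followed here in N202 mouse mammary tumour cells that had been adapted to grow on brain, bone marrow or lung tissue. The genes were Timp1, Timp2 and Timp3 for the inhibitors, and Mmp2, Mmp3, Mmp9, Mmp10, Mmp13, Mmp14 and Mmp15 for the enzymes. They were chosen with their levels on these arrays known, so their values are given as a description. The model below was fitted to all genes, but no test result of the members is used. For each gene the probe set that carries its symbol alone was read, and the brightest one where a gene had several. Of the 10 genes, 9 had such a probe set, out of 19937 genes with a symbol of their own on the array. No value is given for Mmp15, which has no probe set under its symbol alone. Of the 9, Timp1, Timp2 and Timp3 passed a filter on dim probe sets and the 6 MMP genes did not. The 3 inhibitors are thus the members that reached its limit in at least 1 group.

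N202 is a tumour line (clone N202.1A) of FVB-NeuN mice, which carry the rat HER-2/neu gene under the mammary MMTV promoter, and all cells measured expressed H2B-GFP, a histone joined to green fluorescent protein. A passage was 21 days of growth on minced, revascularised tissue of C57BL/6 donors in a dorsal skinfold chamber on a female nude mouse, an animal that lacks most T cells. Cells taken from the tissue were selected with G418 between passages, and those for the arrays were sorted for GFP and grown again in culture, so that RNA came from cultures and not from tissue. The 21 arrays form 16 groups. Parental cells never placed on tissue (P0) had 2 arrays. Cells adapted to brain had 2 arrays at each of passages P1, P2, P3 and P4. These passages sum to 21, 42, 63 and 84 days on tissue, without the weeks in culture between them. Cells adapted to bone marrow and to lung had 1 array at each of P1 to P4. Cells that spent a single passage on breast tissue (P1) had 1 array. A second, independent adaptation to brain had 1 array at P1 and 1 at P2. The second brain array of each passage was a technical replicate that started from cells in culture, so the spread within a pair is that of cultures of 1 adapted line, and p-values below measure that spread only. The lone arrays have no replicate check. The paper's modelling placed P1 and P2 of the second brain adaptation later in the first series, between its P2 and P4. Equal passage numbers therefore need not mean equal stages of the 2 adaptations.

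Each value is a log2 level of 1 probe set after RMA, the background correction, quantile normalization and probe summary of Affymetrix arrays, so a difference of 1 is a 2-fold difference in signal. A level is comparable between arrays for the same gene, while between genes it also depends on the probes and does not rank amounts of RNA. What is dim is marked by a filter limit and a lower reference. The filter kept probe sets whose highest group mean was at least 7.33, and 7300 genes passed it. For the reference, the 1035 probe sets of olfactory receptor genes, which mammary cells are not known to use, had a 95th percentile between 4.41 and 5.03 on the 21 arrays. The median of the same probe sets was 3.22 to 3.77 on the second arrays of brain P1 to P4 and 3.45 on the lung P1 array, against 2.79 to 3.05 on the other 16 arrays, so these 5 arrays had a raised floor. No 2 arrays held identical values.

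MMPs are zinc-dependent enzymes, secreted or anchored in the cell membrane, that cut collagens, laminins, fibronectin and many cell surface proteins. They are made as inactive proenzymes, and most are activated by other proteases such as plasmin, furin or another MMP. The TIMPs bind their active sites and block them. TIMP3 differs from the other inhibitors in that it binds to the extracellular matrix and also blocks several ADAM and ADAMTS proteases, among them the sheddase ADAM17 and the aggrecanases. In brain, where the matrix is rich in proteoglycans and poor in fibrillar collagen, MMP2 and MMP9 are known for their part in opening the basement membrane of vessels.

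The DNA before the start of these genes is shown because the inhibitor with the widest range differs there from the 3 secreted enzymes whose genes lie together on chromosome 9. RefSeq windows of the 250 bases upstream of the start (mouse build GRCm38.p6) were at hand for 8 members and, for the background, for 32851 gene starts. Those of Mmp2 and Mmp9 were not among them. The 250 bases before Timp3 (chr10:86300162-86300411, plus strand) are printed with every CpG in capitals.
Timp3: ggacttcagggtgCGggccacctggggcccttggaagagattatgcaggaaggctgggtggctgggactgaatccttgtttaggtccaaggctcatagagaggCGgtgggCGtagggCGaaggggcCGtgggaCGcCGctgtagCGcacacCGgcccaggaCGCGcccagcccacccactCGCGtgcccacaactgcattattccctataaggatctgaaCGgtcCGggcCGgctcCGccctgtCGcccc
The window held 18 CpG, as many as or more than which were found in 21.7% of all windows, where the median was 6. Timp2 had 21, Mmp15 14, Mmp14 10 and Timp1 6.

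The last 70 bases before Mmp3 (chr9:7445752-7445821), Mmp10 (chr9:7502272-7502341) and Mmp13 (chr9:7272444-7272513), all on the plus strand, are printed with the AP-1 motif TGANTCA and the TATA box motif TATAAA in capitals.
Mmp3: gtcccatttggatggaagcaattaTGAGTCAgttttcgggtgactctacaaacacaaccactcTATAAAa
Mmp10: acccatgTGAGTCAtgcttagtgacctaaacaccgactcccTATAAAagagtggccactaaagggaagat
Mmp13: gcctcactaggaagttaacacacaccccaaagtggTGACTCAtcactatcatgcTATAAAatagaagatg
AP-1 is the dimer of Fos and Jun proteins. Both motifs were searched on both strands (TGANTCA reads alike on both) and the 2 did not overlap. TGANTCA was found in 6.75% of all windows, TATAAA in 12.4% and both in 1.21%, and of the 8 members with a window these 3 held both and the other 5 held neither. The 250-base windows of Mmp3, Mmp10 and Mmp13 held 1 CpG each. A match of letters is a description of the sequence and not a shown binding site.

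Timp3 was the member with the widest range, from 4.83 to 11.71 over the 21 arrays. The probe set (10365482) stood at 10.93 and 9.98 on the P0 arrays, at 5.10 and 5.50 at brain P1, at 4.83 and 5.28 at brain P2, at 9.72 and 9.61 at P3 and at 10.08 and 9.70 at P4. The 4 arrays of the first 2 brain passages thus lay apart from all others, while at P3 both arrays were again a little below both P0 arrays and at P4 the groups overlapped. In the second adaptation to brain the levels were 11.71 at P1 and 11.29 at P2, the highest of the 21 arrays. On bone marrow Timp3 stood at 10.69, 9.70, 9.17 and 9.18 at P1 to P4, on lung at 11.06, 9.72, 10.11 and 9.38, and on breast tissue at 9.74. Outside brain P1 and P2 of the first adaptation, no array was below 9.17.

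The mean difference of Timp3 from P0 was -5.16 (SD of the difference 0.73) at brain P1 and -5.40 (0.75) at P2, which is 35.6-fold and 42.1-fold lower in signal, and -0.79 (0.68) at P3 and -0.56 (0.73) at P4, n = 2 arrays in every group. At the late passages the size rests on the P0 arrays, being -0.31 at P3 and -0.08 at P4 without parental P0 replicate 1 and -1.27 and -1.04 without parental P0 replicate 2. All groups were compared with the same 2 P0 arrays, which themselves differed by 0.96 on this probe set. Since the 4 early brain arrays lay below the filter limit, where RMA compresses differences, a cautious value was also taken with those arrays set to 7.33. By it Timp3 was at least 8.72-fold lower than the P0 mean. The value is the same at both passages because all 4 arrays were set to that limit. That value allows for the dim signal only and not for the spread of the P0 arrays. The 4 values still exceeded the 95th percentile of the olfactory receptor probe sets of their own arrays, with 97.3% to 99.1% of those probe sets below them. Of the 7300 genes tested by limma, 5.55% were called changed against P0 at brain P1, 13.3% at P2, 0.658% at P3 and 1.01% at P4, and Timp3, picked for its low level at the early passages, adds nothing to those shares. The number of genes called itself hung on single arrays, falling from 405 to 95 at P1 without brain P1 replicate 2 and from 969 to 282 at P2 without parental P0 replicate 1, and limma called 0 genes at either passage when the second adaptation was added to the brain groups. In these pooled cultures a lower level in every cell and a loss of cells with a high level cannot be told apart.

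Ordered by level, the 16 groups ran for Timp3 from second brain P1 (11.71) and P2 (11.29), lung P1 (11.06), marrow P1 (10.69) and P0 (10.46) through lung P3 (10.11), brain P4 (9.89), breast (9.74), lung P2 (9.72), marrow P2 (9.70) and brain P3 (9.66) to lung P4 (9.38), marrow P4 (9.18), marrow P3 (9.17), brain P1 (5.30) and brain P2 (5.06). The widest step between neighbours, 3.87, lay between marrow P3 and brain P1, beside a pooled SD of the 5 array pairs of 0.38. Timp3 was picked for its low level at brain P1 and P2, so the step is a description and not a test. The other 14 gaps were at most 0.43, about the size of that SD, so the order of neighbours is not resolved. Groups far apart in the order, such as second brain P1 (11.71) and marrow P3 (9.17), differed by more.

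**Figure D1:**
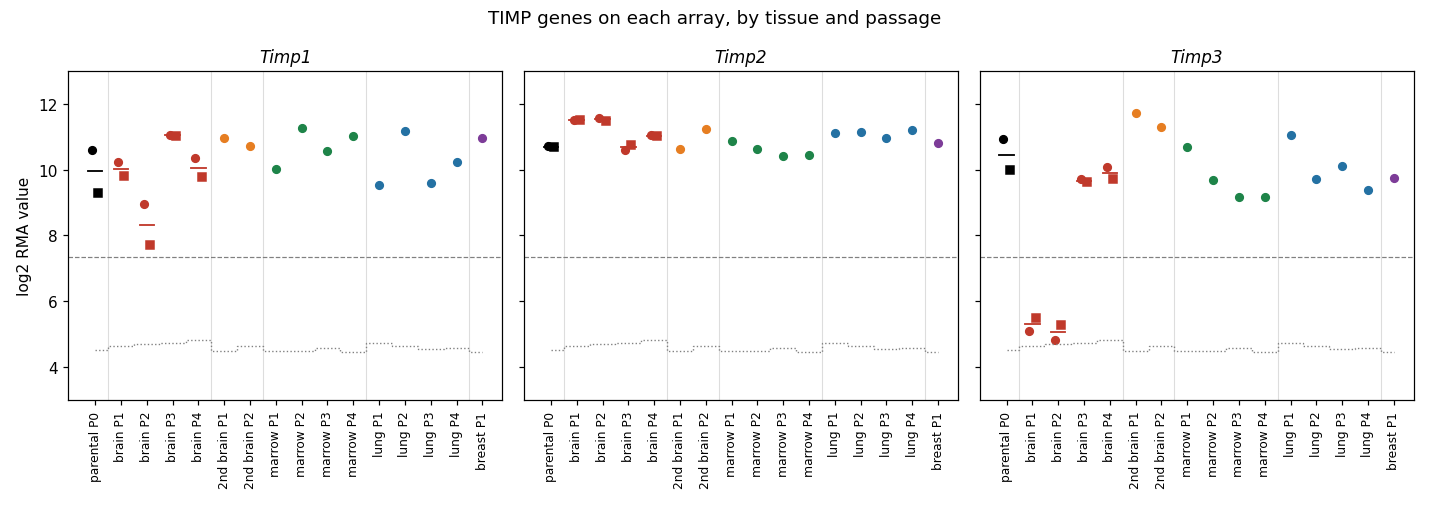
Log2 RMA level (vertical axis) of Timp1, Timp2 and Timp3 on each of the 21 arrays, by group (horizontal axis). Circles are first and lone arrays, squares second arrays, bars group means of pairs, and colours the tissue. The dashed line is the filter limit of 7.33 and the dotted line the mean 95th percentile of the olfactory receptor probe sets in each group. Timp3 lies between 4.83 and 5.50 on the 4 arrays of brain P1 and P2 and at 9.17 or higher on all others.

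Timp2 lay higher, not lower, at the same passages. TIMP2 inhibits MMPs and, with MMP14, also serves on the cell surface in the activation of proMMP2. The probe set (10393559) stood at 10.71 and 10.69 at P0, 11.51 and 11.49 at brain P1, 11.56 and 11.48 at brain P2, 10.60 and 10.75 at P3 and 11.05 and 11.01 at P4. The 4 arrays of brain P1 and P2 were the highest of the 21, and pairs were close, with a pooled SD of 0.058. In the second adaptation Timp2 stood at 10.64 at P1, just below both P0 arrays, and at 11.23 at P2. Bone marrow gave 10.86, 10.62, 10.40 and 10.44 at P1 to P4, lung 11.11, 11.15, 10.95 and 11.21, and breast tissue 10.82. All 4 lung arrays were above P0, and the marrow arrays were above it at P1 and below it from P2 on.

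The differences of Timp2 from P0 were 0.80 (SD of the difference 0.02) at brain P1 and 0.82 (0.06) at P2, or 1.74-fold and 1.77-fold higher, then -0.02 (0.11) at P3, a value whose sign turned under other scalings, and 0.33 (0.03) at P4, where the median of all kept genes was -0.19. These sizes are small beside those of Timp3. In the order of the 16 groups for Timp2, brain P2 and P1 came first, 0.02 apart, and a gap of 0.27 separated them from second brain P2. A gap of 0.18 set marrow P4 and P3 below the rest, and the remaining gaps were at most 0.12. These gaps too are a description and not a test.

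Timp1, an inhibitor that is induced by many cytokines and binds proMMP9, had its lowest group mean at brain P2. The probe set (10598976) stood at 10.59 and 9.30 at P0, 10.23 and 9.80 at brain P1, 8.94 and 7.71 at brain P2, 11.05 and 11.03 at P3 and 10.36 and 9.76 at P4. Both brain P2 arrays were below both P0 arrays, but the P0 arrays differed by 1.29 and the P2 arrays by 1.24. The second adaptation gave 10.97 at P1 and 10.71 at P2, bone marrow 10.02, 11.28, 10.55 and 11.01, lung 9.53, 11.16, 9.60 and 10.22, and breast tissue 10.97. The differences from P0 at brain P1 to P4 were 0.07, -1.62, 1.10 and 0.12, with SDs of 0.96, 1.26, 0.91 and 1.01. Leaving out the first P0 array made the difference at P2 -0.97 and leaving out the second made it -2.26, and for the same reason the sign at P1 and P4 turned with the P0 array that was used. Of the 15 gaps between neighbouring groups for Timp1, the widest was 1.21, between lung P1 and brain P2, and the P0 arrays alone differed by 1.29.

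The 6 MMP genes measured stayed below the filter limit on all 21 arrays. By that limit they were dim in parental cells and in every tissue and passage, so no difference among them is more than a difference between dim probe sets. The limit keeps a set number of probe sets and is not a limit of detection. A looser filter at the olfactory receptor 95th percentile was passed by 8 of the 9 members measured. Mmp2 (10573924), a gelatinase that cuts denatured collagen and the collagen IV of basement membranes, ranged from 5.22 to 6.55. It stood at 5.58 and 5.60 at P0, 5.89 and 5.22 at brain P1, 6.42 and 6.55 at brain P2, 5.36 and 5.61 at P3 and 5.79 and 5.36 at P4. The brain P2 arrays were the 2 highest, 0.89 (SD of the difference 0.09, 1.86-fold) above P0, followed by second brain P1 at 6.14 and by the first brain P1 array. Second brain P2 was at 5.81, and the 9 marrow, lung and breast arrays were between 5.24 and 5.74. Mmp2 was above the olfactory receptor 95th percentile on 21 of 21 arrays.

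Mmp9 (10478633), the other gelatinase, ranged from 3.91 to 5.66 and passed the olfactory receptor percentile on 15 arrays. It stood at 4.99 and 4.24 at P0, 4.49 and 4.47 at brain P1, 4.79 and 4.12 at P2, 4.97 and 5.66 at P3 and 4.79 and 3.91 at P4. At every brain passage the arrays overlapped the range of the P0 arrays.

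The stromelysins Mmp3 and Mmp10 cut proteoglycans and activate other MMPs. Mmp3 (10583071) ranged from 3.19 to 5.27 and was above the olfactory receptor percentile on 2 arrays. It stood at 4.23 and 3.19 at P0, 5.27 and 4.26 at brain P1, 3.90 and 3.96 at P2, 5.03 and 5.0 at P3, and 3.74 and 4.03 at P4. Both arrays of brain P1 and of brain P3 lay above both P0 arrays, by mean differences of 1.05 (SD of the difference 1.03) and 1.3 (0.74), the first of them about as large as its own SD. Among lone arrays the highest was lung P1, at 4.75, which is an array with a raised floor, and the other 10 were between 3.46 and 4.05.

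Mmp10 (10583090) ranged from 4.08 to 5.44 and was above the olfactory receptor percentile on 14 arrays. It was at 4.80 and 4.74 at P0, 4.29 and 4.75 at brain P1, 4.81 and 4.78 at P2, 5.44 and 5.09 at P3 and 4.83 and 4.91 at P4. Brain P3 was 0.50 (SD of the difference 0.25) and brain P4 0.10 (0.07) above P0 with no overlap, and marrow P2 and P3, at 5.34 and 5.33, were as high. The collagenase Mmp13 (10583044), which cuts fibrillar collagens, ranged from 3.55 to 4.30 and was above that percentile on 0 arrays. The same value of 4.03 came up on 4 arrays for Mmp13, both of brain P3 among them.

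Mmp14 (10415052), the membrane-type enzyme that activates proMMP2, ranged from 4.41 to 5.26 and was above the olfactory receptor percentile on 18 arrays. Its brain means were -0.42, -0.15, -0.21 and -0.01 from P0 at P1 to P4, and every brain group overlapped P0. Over all 6 genes the widest range was that of Mmp3, 2.08, against 6.88 for Timp3.

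**Figure D2:**
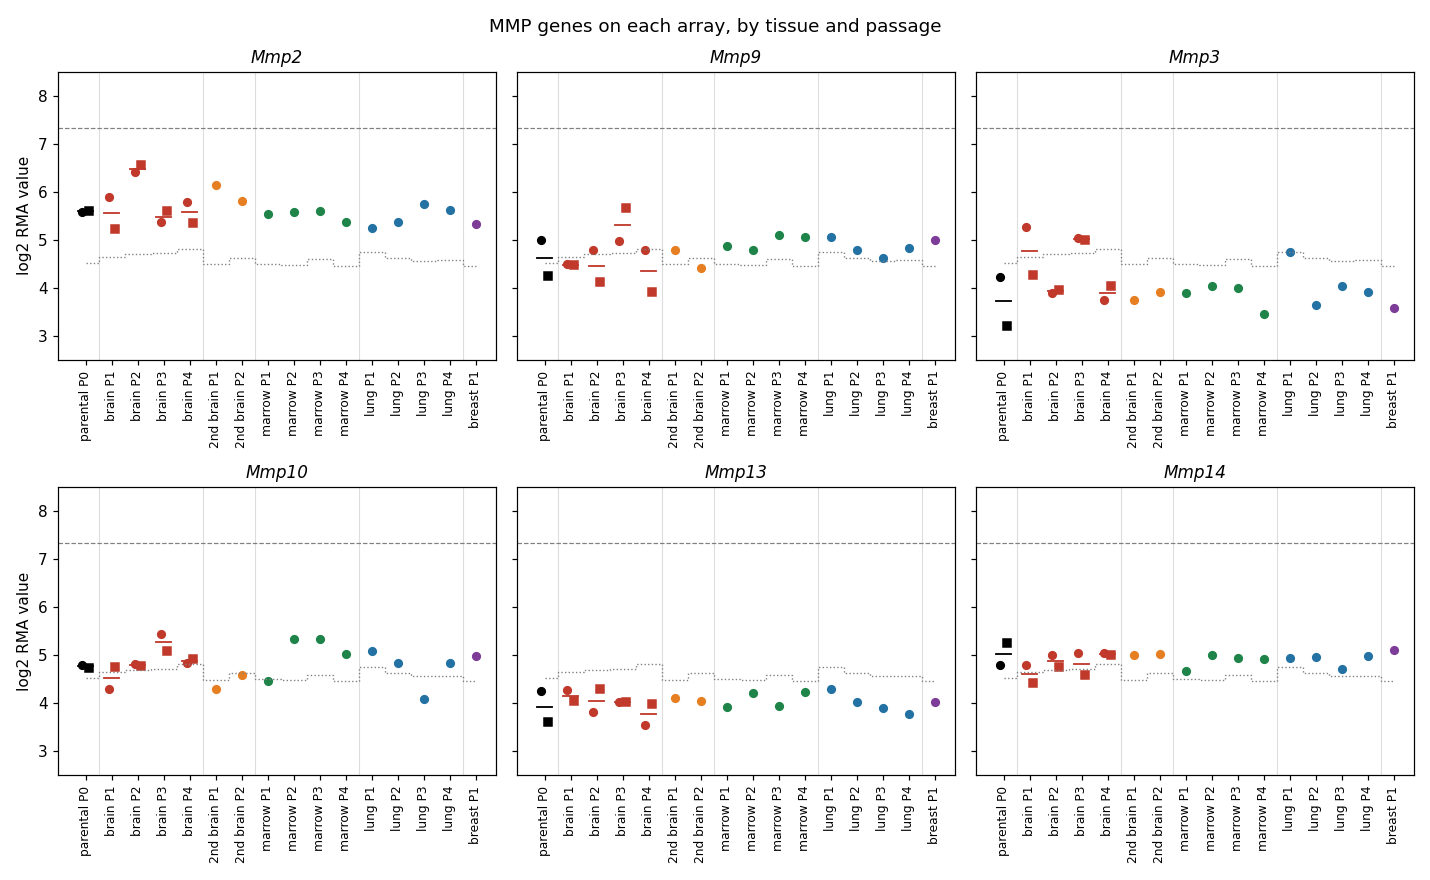
Log2 RMA level (vertical axis) of 6 MMP genes on each of the 21 arrays, by group (horizontal axis), with circles for first and lone arrays, squares for second arrays, bars for means of pairs and colours for the tissue. The dashed line is the filter limit of 7.33 and the dotted line the mean 95th percentile of the olfactory receptor probe sets in each group. No array reaches the dashed line for any of the 6 genes, and Mmp2 is highest at brain P2 (6.42 and 6.55).

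The other genes of the 2 families gave the same picture of low signal. Of 17 further TIMP and MMP genes, all 17 were measured and 0 passed the filter, so none was tested. Mmp11, a stromelysin often made by stroma, ranged from 5.43 to 7.03 and was highest on the first brain P4 array. Mmp28 ranged from 5.06 to 6.27, and Mmp7, matrilysin, an enzyme of epithelial cells, from 4.28 to 6.86. Mmp7 stood at 4.94 and 5.38 at P0, 6.06 and 6.86 at brain P1, 5.77 and 5.87 at brain P2, and 4.91 to 5.46 at P3 and P4. Its 4 early brain arrays were the highest of the 21, with 5.08 and 4.95 in the second adaptation. Timp4 ranged from 3.48 to 3.98, Mmp1a from 2.83 to 4.26, Mmp1b from 2.15 to 3.97, Mmp8 from 2.26 to 4.05, Mmp12 from 3.30 to 4.15, Mmp16 from 3.19 to 4.47 and Mmp17 from 4.61 to 5.21. Mmp19 ranged from 4.16 to 5.62, Mmp20 from 3.73 to 4.85, Mmp21 from 3.71 to 5.28, Mmp23 from 4.50 to 5.30, Mmp24 from 4.61 to 5.55, Mmp25 from 3.62 to 4.27 and Mmp27 from 3.25 to 4.21. For Mmp8, Mmp27, Mmp1a and other dim genes the level followed the floor of the array, with a correlation over the 21 arrays of 0.78 for Mmp8 with the olfactory receptor median, whereas it was -0.20 for Timp3 and 0.25 for Timp2.

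Around these families stand the proteases that TIMP3 blocks and the genes that activate, dock or clear MMPs. Together with the further TIMP and MMP genes these made a list of 45, of which 44 were measured and 14 passed the filter. At brain P1 the calls were 1 rise and 2 falls among the 14, and at brain P2 they were 1 rise and 3 falls, in limma fits with Benjamini-Hochberg adjustment over all kept probe sets, against the 5.55% and 13.3% of all genes called in those comparisons. The median change of the 14 was -0.15 at P1 and -0.14 at P2, beside -0.02 and -0.05 for all kept genes. At P3 and P4 limma called 0 of the 14, with 2 and 0 genes at an unadjusted p under 0.05. The 4 genes called at P1 or P2 were Adamts5, Adamts1, Plau and Pcsk6. From these arrays the paper had already placed Adamts5, Adamts1 and Plau in groups that fell early on brain, and Pcsk6 in one that rose. This list and those below were chosen with earlier results of these data known, those of Plau and Adamts1 among them. Their counts are therefore no independent comparison with the shares of all genes.

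Of the targets and partners of TIMP3, 11 of 12 were measured, 6 passed the filter, and the calls were 1 fall at P1 and 2 falls at P2, with no rise. Adamts5 (10440534), the main aggrecanase of cartilage, stood at 6.23 and 6.51 at P0, 4.21 and 4.24 at brain P1, 4.67 and 4.09 at brain P2, and 5.92 and 5.36, then 6.64 and 6.59, at P3 and P4. At P1 it fell by 2.15 (standard error 0.25, limma adjusted p = 0.0026), and the fall at P2 was -1.99 (0.25, 0.0029). Of the 4 early brain arrays 3 lay below the olfactory receptor percentile, and the P0 arrays below the filter limit that Adamts5 passed through marrow P1 (8.08), so the size of the fall is uncertain. Adamts1 (10440522), a protease that cuts versican and aggrecan, stood at 8.06 and 7.51 at P0, 6.71 and 6.48 at brain P1 and 6.04 and 5.04 at brain P2. It fell by 2.25 (standard error 0.32, adjusted p = 0.0048) at P2, while at P1 the change was -1.19 (adjusted p = 0.074). At P3 and P4 Adamts1 was at 8.04, 7.87, 7.68 and 7.41, within or next to the range of P0. The sheddases that TIMP3 inhibits did not pass the test, with Adam17 at -0.52 (adjusted p = 0.20) and -0.28 (0.43) and Adam10 at 0.16 (0.70) and -0.03 (0.93) at P1 and P2.

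Of 16 genes for activation, docking and clearance of MMPs all 16 were measured, 8 passed the filter, and 1 rose and 1 fell at both passages. Plau (10413047), the urokinase that turns plasminogen into plasmin, stood at 9.37 and 8.36 at P0, 7.02 and 6.44 at brain P1, 5.96 and 5.54 at brain P2, 10.14 and 10.66 at P3 and 8.84 and 8.29 at P4. At P1 it fell by 2.13 (standard error 0.37, limma adjusted p = 0.016) and at P2 by 3.11 (0.0024), and the brain P2 arrays were the lowest of the 21. Pcsk6 (10553967), a proprotein convertase of the furin family, stood at 9.69 and 9.78 at P0, 10.81 and 10.69 at brain P1, 10.94 and 10.41 at brain P2, and 9.20 to 9.73 at P3 and P4. At P1 it rose by 1.02 (standard error 0.24, limma adjusted p = 0.045), and at P2 the rise was 0.94 (0.037). Furin, Bsg, Cd44, St14, Lcn2 and Itgav did not pass the test at any of the 4 brain passages, with Itgav at 0.64 (adjusted p = 0.088) at P1. The calls of Adamts5 and Adamts1 and that of Plau at P2 held in 4 of 4 fits with an array left out, whereas the P1 call of Plau was lost when parental P0 replicate 1 (-1.63, adjusted p = 0.083) or brain P1 replicate 2 (-1.84, 0.13) was left out. Pcsk6 lost its P1 call in 4 of 4 such fits (highest adjusted p = 0.21) and its P2 call without parental P0 replicate 1, parental P0 replicate 2 or brain P2 replicate 1 (highest 0.20). In a fit without the 5 raised-floor arrays, which leaves 1 array in each brain group and was chosen after seeing the data, limma called 0 of the 14 at P1 and P2 (5 and 4 at an unadjusted p under 0.05), while the differences of the 4 called genes kept their signs. Adding the second adaptation to the brain groups also ended every one of these calls (3 and 3 at an unadjusted p under 0.05). Without the filter the calls of Adamts1 at P2, Plau at P1 and Pcsk6 at P1 and P2 ended. Those of Plau at P1 and Pcsk6 at both passages also ended with the looser filter at the olfactory receptor percentile. The calls of Adamts5 and that of Plau at P2 held in both of these settings.

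**Figure D3:**
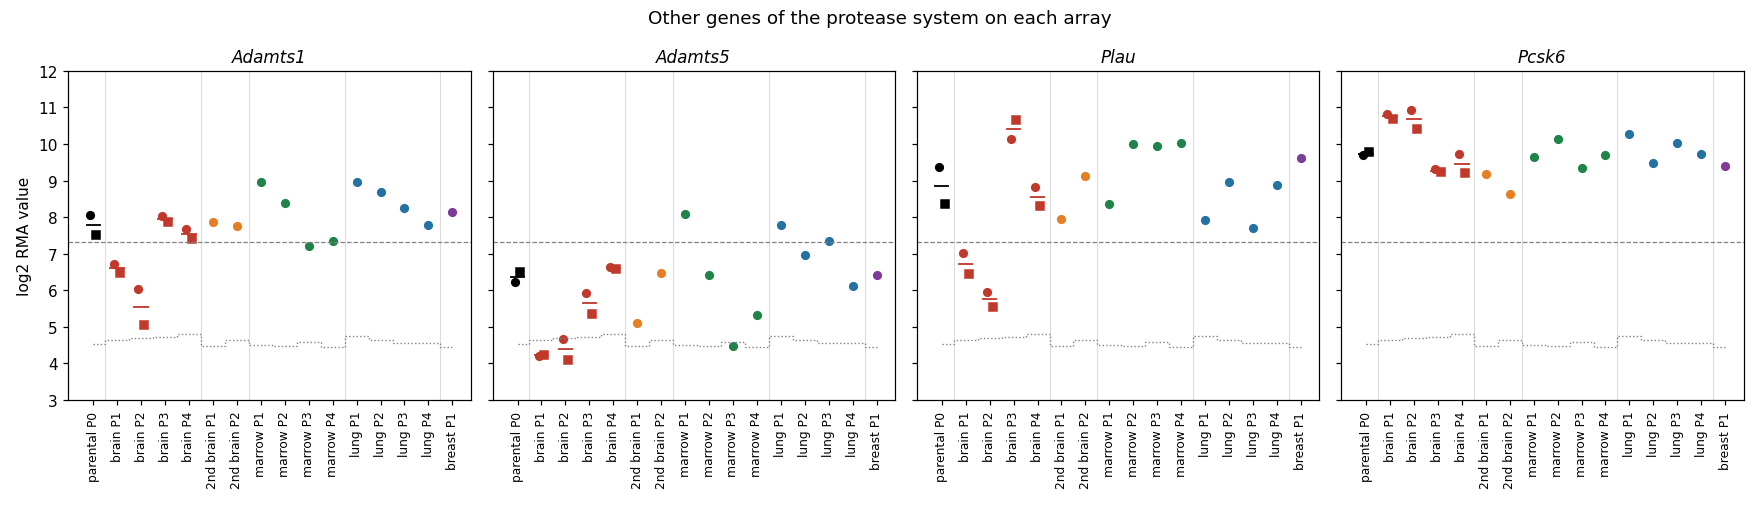
Log2 RMA level (vertical axis) of Adamts1, Adamts5, Plau and Pcsk6, the 4 genes of the protease system called at brain P1 or P2, on each of the 21 arrays by group (horizontal axis). Symbols and lines are as in the plots of the TIMP and MMP genes. Plau lies between 5.54 and 7.02 on the 4 arrays of brain P1 and P2 and between 7.72 and 10.66 on the others, and the 4 early arrays of Pcsk6 lie between 10.41 and 10.94.

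How the early brain passages of the first adaptation stood beside the other adaptations at the same passage is given for these 4 genes as a description. They had been picked for their calls on the same brain arrays, the other adaptations have 1 array each, and Adamts5 passed the filter through bone marrow and lung arrays, so such differences do not test whether the adaptations differ. Of all genes, limma called 6.99% at P1 and 8.41% at P2 against the second adaptation, 3.04% and 8.81% against bone marrow, 5.01% and 8.1% against lung and 4.15% against breast tissue at P1. Plau was at 7.94 at P1 and 9.12 at P2 of the second adaptation to brain, and the first adaptation was lower by a difference of -1.21 and -3.37. Adamts1 was at 7.88 and 7.77 there, with differences of -1.28 and -2.23, and Pcsk6 at 9.18 and 8.62, with differences of 1.57 and 2.05. Adamts5 was at 5.12 and 6.48, with differences of -0.89 and -2.10. In the second adaptation Plau, Adamts1 and Adamts5 thus stood above both early brain pairs of the first, and Pcsk6 below them. At P1 of the second adaptation Adamts5 and Plau nevertheless lay below both P0 arrays (6.23 and 6.51, 9.37 and 8.36), the direction of the first adaptation. Adamts1 lay between its P0 arrays there, and Pcsk6 below them, opposite to the first adaptation.

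On bone marrow Plau was at 8.35 at P1 and 10.01 at P2, and on lung at 7.93 and 8.97, all above the 4 early brain arrays. For Adamts1 the bone marrow arrays were at 8.96 and 8.38 and the lung arrays at 8.97 and 8.68, also above all 4. Pcsk6 was at 9.65 and 10.15 on bone marrow and at 10.29 and 9.49 on lung, below its 4 early brain arrays (10.41 to 10.94). At marrow P2 and lung P1 Pcsk6 nevertheless lay above both P0 arrays (9.69 and 9.78), the direction of the first brain adaptation. For Adamts5 the bone marrow arrays were at 8.08 and 6.41 and the lung arrays at 7.78 and 6.96, against 4.09 to 4.67 on the 4 early brain arrays, which lie near the floor and leave the size of that difference open to compression. The corresponding differences of Timp3 were -6.41 and -6.23 against the second adaptation to brain at P1 and P2.

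The substrates of MMPs and the factors known to act at AP-1 and Ets sites of MMP promoters were read in the same fits. Of 17 substrate genes 15 were measured and 9 passed the filter, and the same single gene was called at P1 and P2, beside 5.55% and 13.3% of all genes. The gene that fell was Sdc1, the cell surface proteoglycan syndecan-1, which at P1 fell by 1.16 (standard error 0.23, limma adjusted p = 0.027) and at P2 fell by 1.42 (0.0079). Sdc1 stood at 10.13 and 9.85 at P0, 9.03 and 8.63 at brain P1 and 8.55 and 8.58 at brain P2, and at 9.41 to 10.30 at P3 and P4. Its P1 call ended in 4 of 4 fits with an array left out (highest adjusted p = 0.20, -0.96 without brain P1 replicate 2), and its P2 call without parental P0 replicate 1 (-1.29, 0.060). Both calls of Sdc1 ended without the filter, and that at P1 also with the looser filter at the olfactory receptor percentile. The median change of the 9 substrate genes was -0.51 at P1 and -0.44 at P2. Fibronectin (Fn1) was at -1.19 (adjusted p = 0.37) and tenascin C (Tnc) at -1.02 (0.16) at P1, neither of which passed.

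Of 12 AP-1 and Ets genes all 12 were measured and 10 passed the filter, and limma called 0 at P1, with 3 at an unadjusted p under 0.05. At P2 1 rose and 1 fell, beside 13.3% of all genes called. Jun, a partner in the AP-1 dimer, was at 9.06 and 8.99 at P0 and 7.73 and 7.87 at brain P2 and fell by 1.22 (adjusted p = 0.034). Ets2 was at 8.94 and 8.74 at P0 and 9.66 and 9.64 at brain P2 and rose by 0.81 (adjusted p = 0.018). The calls of Jun and Ets2 ended without the filter and with the looser filter at the olfactory receptor percentile. Both calls ended in 4 of 4 fits with an array left out, with the highest adjusted p = 0.15 for Jun (-1.18 without parental P0 replicate 1) and 0.089 for Ets2 (0.80 without brain P2 replicate 1). At P4 Etv5, which was named after its value was seen, fell by 1.28 (adjusted p = 0.028), and that call too was lost in 4 of 4 such fits (highest adjusted p = 0.16, -1.17 without parental P0 replicate 2).

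Among the 7300 kept genes, the 5 whose 16 group means had the highest Pearson correlation with those of Timp3 were Ccdc68 (0.97), Tbc1d9 (0.96), Dram1 (0.95), Clic4 (0.94) and Pole3 (0.94). With 16 points that share the P0 arrays and 2 very low groups, such values are a description of the shape only. Ccdc68, a coiled-coil protein, stood at 7.50 at P0, 4.27 at brain P1, 4.06 at brain P2 and 6.92 to 8.25 in the other groups. Tbc1d9 was at 7.57, 5.69 and 5.42 in the same groups and at 6.84 to 8.62 elsewhere. Dram1, a lysosomal protein that takes part in autophagy, was at 8.58, 6.30 and 6.77, Clic4, an intracellular chloride channel protein, at 9.99, 8.98 and 8.69, and Pole3, a subunit of a DNA polymerase, at 8.24, 7.35 and 7.19. Picked by that correlation, all 5 were lowest in the 2 groups in which Timp3 was lowest. Their differences from P0 at brain P2 were -3.44, -2.15, -1.81, -1.31 and -1.05, beside -5.40 for Timp3. These sizes also depend on the starting level. Ccdc68 started near the filter limit, and its mean at brain P2 lay below the olfactory receptor percentile of both arrays (4.59 and 4.81).

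By annotation Timp3 lies within Syn3 and Timp1 within Syn1, both synapsin genes of neurons, and Cep295nl lies within Timp2. These 3 were dim on every array, Syn3 at 4.28 to 5.39, Syn1 at 4.85 to 5.58 and Cep295nl at 4.79 to 5.86, and none passed the filter.

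Most markers of other cell types were dim, but Cd14, Cd68, Sftpd and Mbp were not. The fibroblast list passed the filter with 0 of 10 genes, and its mean level was 4.28 to 5.0 over the 21 arrays, with Col1a1 at 5.89 to 6.49 and Col3a1 at 5.59 to 6.23. Endothelial markers passed with 0 of 8 genes (mean 4.16 to 4.73, with Cldn5 at 4.42 to 5.76 and Tie1 at 4.42 to 5.26), marrow blood cells with 0 of 6 (4.42 to 5.30, with S100a8 at 3.98 to 7.43 and S100a9 at 4.78 to 5.74), and neurons and glia with 1 of 9 (4.47 to 4.87, with Mbp at 6.66 to 7.50 and Snap25 at 4.38 to 5.31). Of 10 macrophage genes, Cd14 (9.57 to 11.04) and Cd68 (5.90 to 8.48) passed, and the mean was 5.0 to 5.64. The other 8 did not pass and lay between 2.91 and 6.56, among them the defining markers Adgre1 (3.15 to 4.23), Ptprc (3.52 to 4.55), Csf1r (4.38 to 5.69) and Cx3cr1 (5.38 to 6.56), the last above the olfactory receptor percentile on 21 of 21 arrays. Of 6 lung epithelial genes Sftpd (5.22 to 9.89) passed and Foxj1 was at 5.20 to 6.40, with a mean of 4.49 to 5.35. Mammary and tumour markers passed with 7 of 8 genes (mean 9.67 to 10.3), with Krt8 at 12.35 to 13.21 and Krt18 at 12.29 to 12.96, as the label of a mammary tumour line would have it.

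Some of these genes moved at the passages at which Timp3 was low. Cd68, a lysosomal protein of macrophages that other cells also make, stood at 6.03 and 5.99 at P0, 8.27 and 7.62 at brain P1 and 8.03 and 8.48 at P2, and rose by 1.94 (adjusted p = 0.017) and 2.24 (0.0060). At P4, where Timp3 was no longer low, Cd68 was at 7.22 and 8.22. Sftpd, the collectin surfactant protein D, rose at P2 by 2.75 (adjusted p = 0.015), with the P0 arrays at 6.02 and 7.98, brain P1 at 9.09 and 9.33 and brain P2 at 9.89 and 9.62. S100a8, a calcium-binding protein of neutrophils and of stressed epithelium that did not pass the filter, was at 4.38 and 4.40 at P0, 6.24 and 7.29 at brain P1, 6.46 and 7.43 at P2, 5.15 to 6.14 at P3 and P4 and 3.98 to 5.75 on the lone arrays, so that the early brain arrays were the highest of the 21. The log2 of the summed signal of the macrophage list was 10.54 to 10.85 at P0 and 11.19 to 11.36 at brain P1 and P2, that of the marrow blood list 7.18 to 7.29 and 7.69 to 8.37, and that of the lung list 7.74 to 8.60 and 9.38 to 10.07. Such sums are weighted to bright genes, here Cd14 (limma adjusted p = 0.33 at P1 and 0.19 at P2), S100a8 and Sftpd, and do not show a rise of whole lists. Between the same groups the sums overlapped for fibroblasts (8.30 to 8.31 and 8.11 to 8.36) and endothelium (7.31 to 7.55 and 7.47 to 7.73). They also overlapped for neurons and glia (8.24 to 8.40 and 8.27 to 8.40). Erbb2 fell by 1.19 (adjusted p = 0.015) at P1, 0.76 (0.048) at P2 and 1.24 (0.039) at P3. Lower levels of Erbb2 were not particular to the early brain passages. Among adapted arrays only lung P3 (10.99) lay above both P0 arrays (10.69 and 10.70). All others lay below them, with second brain P1 at 9.01, marrow P3 at 9.21 and breast tissue at 9.78. The junction gene Cldn3 rose at P2 by 0.72 (0.026), and the mammary transcription factor Elf5, named after its value was seen, fell at P3 by 1.56 (0.030). Of these calls only that of Cd68 at P2 held in 4 of 4 fits with an array left out. Without the 5 raised-floor arrays it was 2.02 (adjusted p = 0.082), and none of the others passed the test there. Cd68 at P1 held in 1 of 4 (highest adjusted p = 0.11, 1.61 without brain P1 replicate 1), Sftpd in 2 of 4 (0.081, 2.62 without brain P2 replicate 1), Elf5 in 2 of 4 (0.20, -1.48 without brain P3 replicate 2), and Erbb2 and Cldn3 in 0 of 4 (highest adjusted p = 0.25 for Erbb2, at P3 with -1.23 without parental P0 replicate 2, and 0.14 for Cldn3, 0.61 without brain P2 replicate 1). The part of other cells in the levels of the TIMP and MMP genes was not tested.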

How the data were processed

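RNA of N202 cells was hybridised to Affymetrix Mouse Gene 1.0 ST arrays, 21 in 16 groups taken from their labels. The authors deposited 1 log2 value per probe set and array, made with RMA in the Affymetrix Expression Console, and these deposited log2 values were used without further scaling. The number of arrays limits the precision.

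Of 34760 probe sets, 21640 carry 1 gene symbol in the platform annotation, 1321 several and 11799 none. A gene with more than 1 probe set was read from its brightest. The study's filter by negative control probes was replaced by keeping the same number of probe sets with the highest group mean, at least 7.33. One linear model with a mean per group was fitted to all arrays with limma 3.58.1 in R 4.3.3, with Benjamini-Hochberg adjustment over all kept probe sets and a threshold of 0.05. Contrasts with a lone array rest on the assumption that it varies as the pairs do. Fits were tested on simulated data. Descriptions and plots used Python 3.11.15, numpy 2.4.6, pandas 2.3.3 and matplotlib 3.10.9, and promoter windows came from a RefSeq table of GRCm38.p6.

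The members and all lists were chosen with earlier results of these data known, Plau and Adamts1 among them. Adamts5 and Pcsk6 also appear in the paper's groups of changed genes. Members were described without a test. The text names all members, the further TIMP and MMP genes by range, of each other list up to 4 genes called at brain P1 or P2 with the lowest p, the 5 genes most like Timp3 by correlation of group means, genes that overlap a TIMP gene, and the 2 brightest genes of each cell type list. S100a8 and Cx3cr1 are named with values that had been seen. Other list genes are named as examples that did not pass the test. Alternatives were no filter, a stricter filter, a filter at the olfactory receptor 95th percentile, equal array medians, cyclic loess, chromosome medians subtracted, a variance trend with robust estimation, averaging all probe sets for a gene, each array of a pair left out in turn, first and second arrays as a replicate block, and the arrays of the second adaptation added to brain P1 and P2. A fit without the 5 raised-floor arrays, and the contrasts between adaptations, were chosen after seeing the data. List genes without a probe set under their symbol alone were not analysed here.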

Additional observations from a re-analysis of the deposited data

Results flagged for a closer look

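Some effects at the same passage number differed between adaptations. For the second adaptation to brain, the paper's modelling placed the same number at a later stage, so those differences are not matched by stage. For the TIMP genes, the brain arrays and the array of another adaptation lay on opposite sides of both P0 arrays, and these differences were not tested. For Timp1 the brain P2 mean minus the other array was -2.39 against the second adaptation to brain, -2.95 against bone marrow and -2.83 against lung. For Timp2 it was 0.86 against the second adaptation at P1 and 0.90 against bone marrow at P2. For Timp3 it was -6.41 against the second adaptation and -5.76 against lung at P1, and -6.23 against the second adaptation at P2.

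For the other genes the difference was taken by limma within the same model. These genes were chosen for their calls on the same brain arrays, so the differences are no independent evidence, and Adamts5 passed the filter through the bone marrow P1 and lung arrays with early brain levels near the floor, so its differences are not a test. Against the second adaptation, Pcsk6 differed by 1.57 at P1 and 2.05 at P2, Plau by -3.37, Adamts1 by -2.23 and Adamts5 by -2.10 at P2. Against bone marrow, Adamts1 differed by -2.37 and Adamts5 by -3.86 at P1, and Plau by -4.26, Adamts1 by -2.84 and Adamts5 by -2.03 at P2. Against lung, Adamts1 differed by -2.37 and Adamts5 by -3.56 at P1, and Plau by -3.22, Adamts1 by -3.15, Adamts5 by -2.58 and Pcsk6 by 1.18 at P2. Against breast tissue at P1, Plau differed by -2.88, Adamts5 by -2.20 and Pcsk6 by 1.36. The 19 differences given are those that limma called among 28 contrasts, of 4 genes in 7 comparisons. With 1 brain array left out all 19 kept their sign, but such fits rest on 1 array on each side. The calls of Pcsk6 against the second adaptation at P1, lung at P2 and breast tissue needed both brain arrays. So did those of Adamts1 against bone marrow and lung at P1, and of Plau against breast tissue. A call that did not need both is no independent evidence either, for the reasons given above. In every contrast the other adaptation had 1 array.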

How the results depend on the processing

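The difference of Timp3 from P0 stayed negative under every scaling and with every array left out, at -5.63 to -4.68 at brain P1 and -5.88 to -4.92 at P2 over the fits without 1 array. With the second adaptation's arrays added to brain P1 and P2 it was -3.02 and -3.32, since the added arrays lay above P0. Of the 14 kept protease system genes, 3 were called at brain P1 and 4 at P2. Counts at P1 were 1 without a filter, 1 with the olfactory receptor filter, 5 with the replicate block, 1 to 2 with an array of P0 or brain P1 left out and 4 without either brain P2 array, whose spread enters the same model, and at P2 2 without a filter and 3 to 4 with an array left out. At both passages limma called 0 without the 5 raised-floor arrays, a setting chosen after seeing the data (5 and 4 genes at an unadjusted p under 0.05), which leaves 1 array in each brain group, and 0 with the second adaptation added (3 and 3). With more probe sets tested under the looser filters, the adjustment is stricter. At P3 and P4 the count was 0 in every fit. Correlations of the deviations of first and second arrays between groups ran from 0.0089 to 0.36, 7 of 10 above 0.1. Since not all were, and the labels name no shared culture or day, the numbers were not taken to pair the arrays, although the second brain arrays have the raised floor in common. The block added calls of Adamts1 (-1.19, adjusted p = 0.024) and Itgav (0.64, 0.045) at P1 and, outside the protease system, Jun (-1.22, 0.028).

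Scaling moved Timp2 to 0.87 at P1 and 0.97 at P2 after cyclic loess, and from 0.33 to 0.53 at P4 with chromosome medians subtracted, while adding the second adaptation gave 0.51 and 0.73. With chromosome medians subtracted Jun was at -0.65 (adjusted p = 0.17) at P2 and Sdc1 at -0.94 (0.059) at P1. Of the TIMP differences with a size above their SD, none changed sign under these alternatives. Probe sets near the floor limit what can be said of the MMP genes, and a change there could pass unseen.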
